A study of Mus musculus with 12 samples.

Results

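The replication-dependent histone genes of the mouse were followed in sorted fetal liver (FL) cells by total RNA-seq. They were taken as every gene whose name begins with Hist1h, Hist2h, Hist3h, or Hist4h, which gave 70 of the 38127 genes counted. By type these are 6 H1, 20 H2A, 19 H2B, 12 H3, and 13 H4 genes. All libraries came from C57BL/6 mice with no allele or treatment named, and each of the 4 groups had 3 libraries. P2 cells (E14.5) were Ter119-CD45-CD54-CD31- and expressed Kit and CD24, the gate of an early erythroid progenitor. CD31+ cells (E14.5) were Ter119-CD45- and also CD54+, the gate of endothelium. CD54+CD31- cells were sorted from Ter119-CD45- cells at E14.5 and again at E18.5, and at E14.5 they are the population in which hepatoblasts lie. The study names independent litters for sorted P2 and CD31+ cells of E14.5. Nothing in the sources used here says the same of the CD54+CD31- libraries under that name, so p-values may there measure technical spread only.

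Nucleosomes are built from the core histones H2A, H2B, H3, and H4, and the linker histone H1 binds the DNA between them. Most of the genes followed here supply these proteins during S phase, when newly copied DNA has to be packaged. Their transcripts are the well-known case of mRNAs that end in a stem-loop in place of a poly(A) tail. The stem-loop is bound by SLBP, the U7 snRNP guides the cut that follows it, and the transcripts are degraded once DNA synthesis stops. A library primed on poly(A) misses most of them. These libraries were made from total RNA after enzymatic removal of ribosomal RNA and so counted them.

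The members lay on 4 chromosomes of GRCm38. On chromosome 13, 56 Hist1 genes formed blocks of 19 genes (chr13:21715763-21837530), 5 genes (chr13:22035164-22043676), 29 genes (chr13:23531050-23764406), and 2 genes (chr13:23933773-23934851), with Hist1h2al alone at chr13:51202727-51203065. The 10 Hist2 genes lay at chr3:96219865-96270132, the 3 Hist3 genes at chr11:58948920-58956830, and Hist4h4 at chr6:136801553-136804415. GENCODE vM21 held 68 of the 70 members, and 63 had a single exon in every annotated transcript. Of the 70, 67 are annotated as protein-coding, and Hist1h2aj, Hist1h2al, and Hist3h2bb-ps as pseudogenes, which were kept in the counts. The coding sequences were close to each other: among the 13 H4 genes of equal coding length (309 bases) the median pairwise identity was 93.9%, and among 12 H3 genes (408 bases) it was 97.2%. For the median member, 56% of the 50-base words of the transcript also occurred in another annotated gene, so reads of single members cannot always be told apart. Type sums are less exposed to this than single genes only if such reads were counted for some member, which is not known here. The part of shared words also differed between types, from 0% to 32.0% in H1 genes and from 24.8% to 100% in H3 genes.

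The stem-loop is the feature that sets these transcripts apart, and it is shown here because it was found without using any measured value. The pattern searched was GG, then any 3 of C or T, then T, any 4 bases, A, any 3 of A or G, and CC, on the transcript strand. It was present in 44 of the 68 annotated members (64.7%) and in 987 of 55450 annotated genes (1.78%). All 44 matches lay in the 3' UTR, between 21 and 58 bases after the stop codon (median 31.5). The 24 members without a match included models that end at the stop codon, so no match says only that these letters are not in the model. The sequences below are those of high-read members of each type, 5' to 3', with the 16-base stem-loop in capitals and 7 bases on each side:
Hist1h1e, H1 (chr13:23621782-23621797, minus strand): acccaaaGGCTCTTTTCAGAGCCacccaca
Hist1h2ab, H2A (chr13:23751572-23751587, plus strand): aaacaaaGGCTCTTTTCAGAGCCacccaca
Hist2h2ac, H2A (chr3:96220418-96220433, minus strand): ccaaaaaGGCTCTTTTTAGAGCCaccaaat
Hist1h2bb, H2B (chr13:23747203-23747218, plus strand): acccaaaGGCTCTTTTAAGAGCCacccaca
Hist1h3e, H3 (chr13:23561903-23561918, minus strand): ccaaaacGGCTCTTTTAAGAGCCacctcca
Hist1h3g, H3 (chr13:23535889-23535904, plus strand): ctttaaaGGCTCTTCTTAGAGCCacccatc
Hist1h4d, H4 (chr13:23581950-23581965, plus strand): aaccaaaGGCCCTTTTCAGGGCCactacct
Hist2h4, H4 (chr3:96262939-96262954, minus strand): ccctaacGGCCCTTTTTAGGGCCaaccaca
The 44 members shared 8 distinct stem-loops, and these divided by type. The sequence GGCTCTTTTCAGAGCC was found in 24 members, 10 H2A, 6 H2B, 5 H3, and 3 H1. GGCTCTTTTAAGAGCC was found in 6, of which 3 were H3. The 12 H4 members with a match held none of these and used 4 others, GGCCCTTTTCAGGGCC (7 members), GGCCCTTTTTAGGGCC (2), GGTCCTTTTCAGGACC (2), and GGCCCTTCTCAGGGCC (1).

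RefSeq promoters (GRCm38.p6) were matched for 61 members. Within 250 bases before the start, the CCAAT box (letters CCAAT, either strand) occurred in 82.0% of the histone promoters and in 34.5% of all 27025 promoters. The TATA box (TATAAA, either strand) occurred in 47.54% and 12.97%. The other motifs were most frequent in 1 or 2 types. The octamer ATTTGCAT occurred in 7 of 17 H2A and 6 of 16 H2B promoters and in none of the H1, H3, or H4 promoters (1.61% of all promoters). AAACACA, known as the H1 box, occurred in 5 of 6 H1, 2 of 17 H2A, and 2 of 16 H2B promoters (6.22% of all). GGTCCG, part of the H4 cell cycle element, occurred in 9 of 12 H4, 1 of 16 H2B, and 1 of 10 H3 promoters (6.82% of all). These are matches of letters, with no measure of binding. The 150 bases before the start of a high-read member of each type are given 5' to 3' on the gene's strand, with the 5 motifs in capitals:
Hist1h1e, H1 (chr13:23622559-23622708, minus strand): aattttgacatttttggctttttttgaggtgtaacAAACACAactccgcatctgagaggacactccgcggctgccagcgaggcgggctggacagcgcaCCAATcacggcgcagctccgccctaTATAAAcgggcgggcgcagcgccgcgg
Hist1h2ab, H2A (chr13:23750938-23751087, plus strand): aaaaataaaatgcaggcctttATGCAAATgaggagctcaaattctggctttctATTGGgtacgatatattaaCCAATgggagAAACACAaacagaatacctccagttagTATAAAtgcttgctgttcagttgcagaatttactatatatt
Hist1h2bb, H2B (chr13:23746584-23746733, plus strand): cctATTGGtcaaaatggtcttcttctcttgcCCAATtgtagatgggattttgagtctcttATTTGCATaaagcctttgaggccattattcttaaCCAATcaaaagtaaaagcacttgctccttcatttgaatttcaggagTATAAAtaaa
Hist1h3e, H3 (chr13:23562386-23562535, minus strand): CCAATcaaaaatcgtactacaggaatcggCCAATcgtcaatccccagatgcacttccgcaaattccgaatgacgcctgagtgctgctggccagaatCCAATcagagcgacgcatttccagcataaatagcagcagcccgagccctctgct
Hist1h4d, H4 (chr13:23581418-23581567, plus strand): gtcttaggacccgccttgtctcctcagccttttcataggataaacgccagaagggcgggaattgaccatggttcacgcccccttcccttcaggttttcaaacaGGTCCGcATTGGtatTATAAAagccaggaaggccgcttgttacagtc

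Total counts ranged from 40714017 to 64368883 per library, so counting error was small beside the spread between libraries for all but the lowest members. The E18.5 CD54+CD31- libraries held lung epithelial transcripts: all 10 markers of that list were higher at E18.5 than at E14.5 (35.9% of all genes). Their summed level was 8889 to 19735 CPM (reads of a gene per 1e+06 reads) against 154 to 168 at E14.5 in the same gate. Nkx2-1, a transcription factor of lung, was at 0 in the 3 E14.5 libraries of this gate. Replicate 1 of E18.5 stood apart, with the highest lung sum (19735) and a sum of 10 hepatoblast markers of 5608 CPM against 38001 and 49333 in replicates 2 and 3 and 74856 to 85821 at E14.5. Of the 9 mesenchymal markers tested all 9 rose (35.9% of all genes), and the other marker of that list, Lrat, was at 0 in all 12 libraries. The sum of the list lay between 3950 and 4369 CPM at E18.5 against 119 to 234 at E14.5. The part of these transcripts in the E18.5 results was not tested. The erythroid list (10 markers) summed to 1900 to 2129 CPM in P2 cells to 280 to 529 in CD31+ cells, to 387 to 665 in E14.5 CD54+CD31- cells, and to 132 to 244 at E18.5. At E18.5, 6 of the 9 erythroid markers tested were lower than at E14.5 (33.5% of all genes), with a median log2 fold change of -2.11. The part of these markers in the fall of the histone genes was not tested. All 10 endothelial markers were higher at E18.5 (35.9% of all genes), with sums of 205 to 259 CPM against 45.4 to 75.1 at E14.5 and 9971 to 10657 in CD31+ cells. The sum of 10 macrophage markers was 1361 to 1623 CPM in CD31+ cells, 164 to 283 in E14.5 CD54+CD31- cells, and 15.8 to 66.8 in P2 cells. Mrc1 alone averaged 1416 CPM in CD31+ cells and 27.8 in E14.5 CD54+CD31- cells. Of the 9 macrophage markers tested, 1 was higher and 6 lower in CD31+ than in CD54+CD31- cells (31.7% and 34.0% of all genes). Their median log2 fold change was -1.015. The part of these markers in the comparisons with CD31+ cells was not tested. Alas2 of the erythroid list and Tk1, Cdt1, and Gins2, genes of DNA replication, are listed at 0 in all 12 libraries. A 0 in these counts can therefore be a failed count.

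Histone genes drew 1.28%, 1.19%, and 1.04% of the counts in P2 cells. The share was 0.379%, 0.511%, and 0.366% in E14.5 CD54+CD31- cells and 0.415%, 0.475%, and 0.377% in CD31+ cells. At E18.5 it was 0.113%, 0.144%, and 0.138%. After TMM scaling, the summed level was 12980, 11991, and 10331 CPM in P2 cells, 5053, 6553, and 4554 in E14.5 CD54+CD31- cells, 3766, 4445, and 3391 in CD31+ cells, and 935, 1198, and 1223 in CD54+CD31- cells at E18.5. Neither the P2 libraries nor the E18.5 libraries overlapped any other group, whereas the CD31+ and E14.5 CD54+CD31- libraries were separated only by the narrow gap between 4445 and 4554. The group means spanned 10.5-fold. In bulk RNA fewer cells in S phase and less histone RNA per cell cannot be told apart.

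Each type followed the same order of groups. The summed H1 level averaged 4696 ± 450 CPM (SD, n = 3) in P2 cells, 2217 ± 365 in E14.5 CD54+CD31- cells, 1759 ± 234 in CD31+ cells, and 646 ± 45.0 at E18.5. For H4 the means were 2283 ± 293, 1051 ± 173, 642 ± 93.6, and 164 ± 18.7 CPM. H3 had the steepest drop, from 630 ± 75.4 in P2 cells through 267 ± 43.9 and 145 ± 40.1 to 32.3 ± 9.92 at E18.5. These sums count reads and are not scaled to transcript length or corrected for shared words. The order of the types within a library is therefore not an order of molecules.

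**Figure D1:**
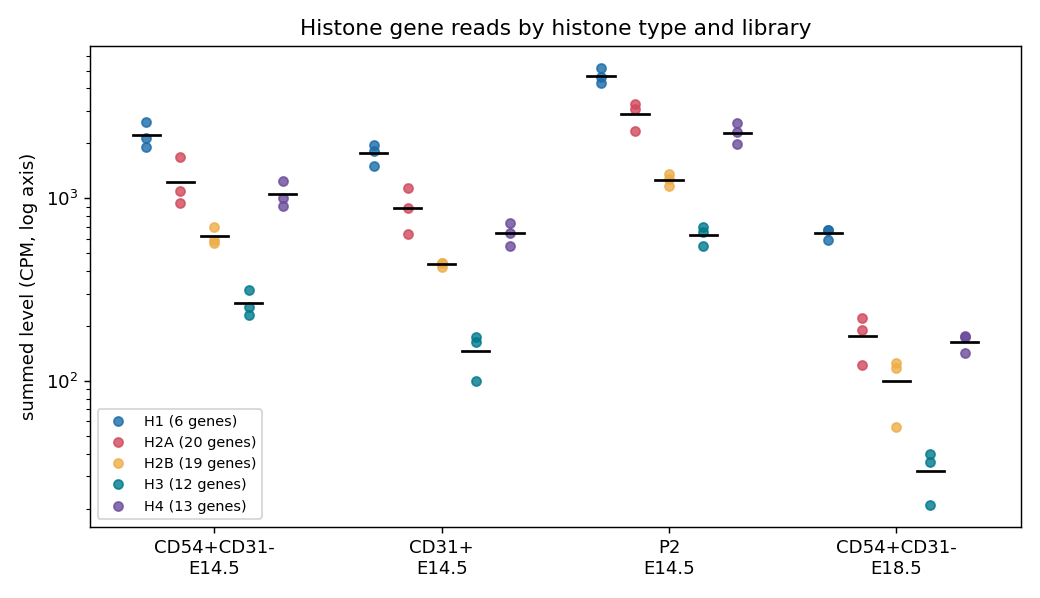
Summed level of the histone genes of each type (CPM, log axis) in the 12 libraries, by group. Points are libraries and bars are means of 3. Every P2 point lies above, and every E18.5 point below, the points of the same type in the other groups.

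In P2 cells the histone genes of every type were higher than in E14.5 CD54+CD31- cells, by a median of 2.25-fold. The test was edgeR's quasi-likelihood test, with p adjusted over all genes tested and a threshold of 0.05. Of the 59 members that passed the low count filter, 52 were higher and 0 were lower by edgeR, where 33.8% of all 15461 genes tested were higher and 36.1% lower. For the 0 lower members, 1 (Hist2h3c1) had an unadjusted p below 0.05 and the same gene was the 1 lower in DESeq2. The members' median log2 fold change was 1.17, against -0.01 for all genes tested. The 3 P2 libraries lay above the 3 others for 54 members (37.6% of all genes) and below them for 1, Hist2h3c1 (37.7%). By type, 6 of 6 H1, 12 of 14 H2A, 12 of 15 H2B, 9 of 11 H3, and 13 of 13 H4 genes tested were higher. Of the 52, 40 were over 2-fold by the point estimate (16.0% of all genes), but 11 passed a test for a change beyond 2-fold (9.66%), so for most members the excess over 2-fold is within error.

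Hist4h4, the single histone gene on chromosome 6, had 224, 188, and 158 CPM in P2 cells and 49.0, 80.0, and 49.1 in E14.5 CD54+CD31- cells. The lowest P2 library lay well above the highest of the other group, with a log2 fold change of 1.66 (SE 0.20, adjusted p = 3.13e-05). Hist1h1a, a linker histone, had 1031, 882, and 868 CPM against 226, 363, and 247, a log2 fold change of 1.72 (SE 0.18, adjusted p = 9.22e-06). Hist1h4d, the H4 gene with the most reads, had 764, 633, and 614 CPM against 300, 365, and 286 (log2 fold change 1.06, SE 0.20). All 3 genes had P2 libraries above the other group without overlap. The largest fitted change, 3.55 (SE 0.99), was that of Hist1h2aj, annotated as an unprocessed pseudogene, which rests on 18, 44, and 22 counts in P2 cells and 5, 0, and 0 in CD54+CD31- cells and shares 93.1% of its words with other genes. Hist1h2ag and Hist1h2an, both H2A genes, followed at 1.66 (SE 0.40) and 1.63 (SE 0.42).

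Against CD31+ cells the differences were larger still. Of 59 members tested, 56 were higher in P2 cells and 0 were lower by edgeR, where 34.3% of all genes were higher and 39.4% lower. At an unadjusted p below 0.05, 0 members were lower, and 0 were lower in DESeq2. The P2 libraries lay above the CD31+ libraries for 56 members (36.8% of all genes), and 56 were over 2-fold by the point estimate (17.1%). The median log2 fold change was 1.79, against -0.13 for all genes, and 47 members passed the test for a change beyond 2-fold (11.5% of all genes). H3 genes had the highest type median, 2.07, and H1 genes the lowest, 1.27. Hist1h3g, an H3 gene, had 130, 108, and 87.2 CPM in P2 cells and 9.65, 24.4, and 22.5 in CD31+ cells (log2 fold change 2.51, SE 0.30, adjusted p = 2.72e-05). Hist1h2ad had 46.7, 47.0, and 31.2 against 1.38, 9.73, and 5.48 CPM, with a wider error (2.90, SE 0.57). Hist1h2ag (2.45, SE 0.41) and Hist1h4n (2.35, SE 0.23) completed the largest changes after Hist1h2aj (3.58, SE 0.92), which again rests on few counts. The 3 members that did not pass were Hist1h1t, Hist2h2ab, and Hist2h3c1.

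**Figure D2:**
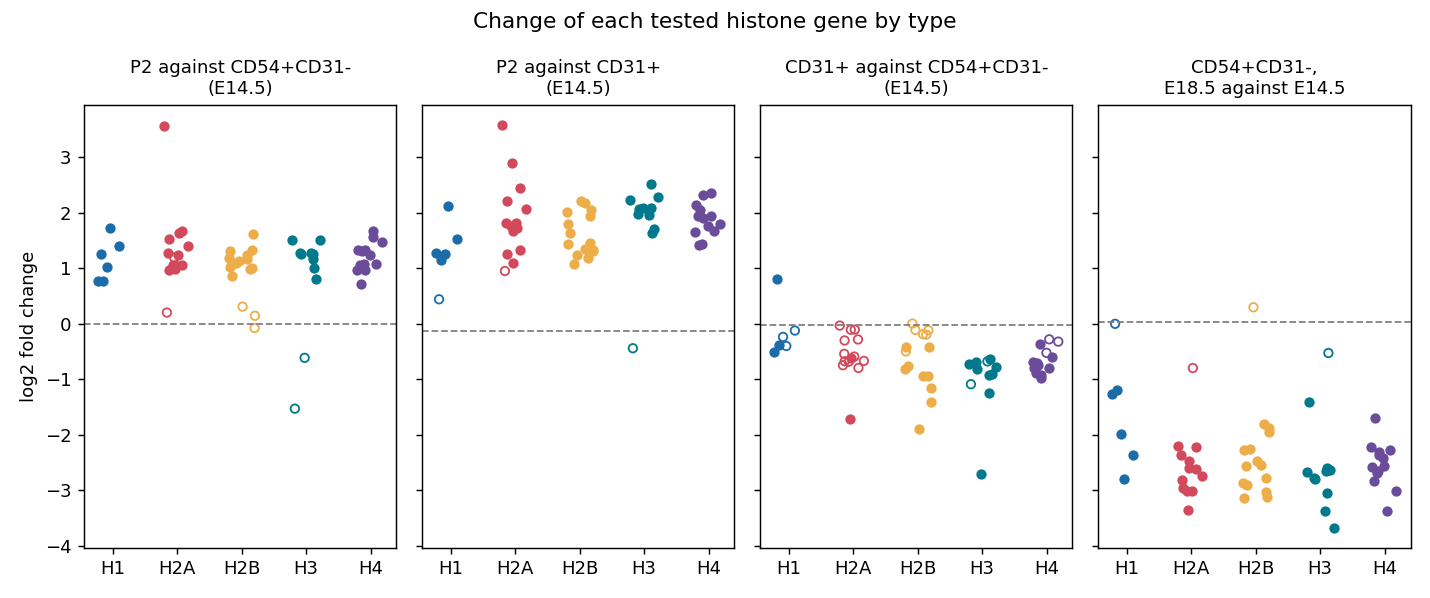
Log2 fold change of each tested histone gene by type in the 4 comparisons. Filled points passed the test (adjusted p below 0.05), open points did not, and the dashed line is the median of all genes tested. In the panels for P2 cells 52 and 56 of 59 points are filled and above the line, and in the E18.5 panel 54 of 58 are filled and below it.

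Between the CD31+ and CD54+CD31- cells of E14.5 the difference was smaller and depended on scaling. Of 59 members tested, 32 were lower in CD31+ cells (34.0% of all genes) and 1 was higher (31.7%). Their median log2 fold change was -0.68, against -0.03 for all genes, and for 32 the groups did not overlap (35.7%). Only 3 members, Hist3h2ba, Hist2h2be, and Hist2h3c2, passed the test for a change beyond 2-fold (14.5% of all genes lower). With library totals in place of TMM, the median of all genes moved by 0.50, to 0.465, and that of the histone genes moved to -0.18. With these totals 7 members were lower and 5 higher, where 3072 of all 15461 genes tested were lower and 7651 higher. On TMM scaling 9 of 11 H3, 10 of 13 H4, and 9 of 15 H2B genes were lower, against 2 of 14 H2A and 2 of 6 H1 genes. The median log2 fold changes were -0.81 for H3, -0.70 for H4, -0.60 for H2A, -0.50 for H2B, and -0.31 for H1. The H2A median was thus below that of H2B despite fewer calls, and the difference between types was not tested. Hist1h3e, the H3 gene with the most reads, had 27.4, 49.7, and 41.8 CPM in CD31+ cells and 74.7, 83.9, and 64.2 in CD54+CD31- cells (log2 fold change -0.92, SE 0.20, adjusted p = 0.00268). Hist1h1b, a linker histone, overlapped between the groups, with 303, 333, and 254 CPM in CD31+ cells and 290, 396, and 279 in CD54+CD31- cells, and its change of -0.12 turned to 0.37 with library totals. Hist1h2bc, an H2B gene, had 41.5, 46.7, and 61.9 CPM against 109, 118, and 107 (log2 fold change -1.16, SE 0.14) and was lower under both scalings. The member called higher, Hist1h1t, had 2.68, 2.00, and 1.47 CPM in CD31+ cells and 1.53, 0.88, and 1.06 in CD54+CD31- cells. These values overlap, and its call (0.81, SE 0.32, adjusted p = 0.0434) was lost when CD31+ replicate 1 (0.574) or 2 (0.752) or CD54+CD31- replicate 2 (0.573) or 3 (0.742) was left out. Hist1h2ad had 1.38, 9.73, and 5.48 CPM in CD31+ cells and 15.7, 27.4, and 10.96 in CD54+CD31- cells (log2 fold change -1.71, SE 0.55, adjusted p = 0.0193), and CD31+ replicate 1 was far below the others of its group. Without CD54+CD31- replicate 2 its change was -1.36 and no longer passed (adjusted p = 0.0626, edgeR), and without CD31+ replicate 1 it was -1.25.

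In CD54+CD31- cells the histone transcripts were lower at E18.5 than at E14.5 for nearly all members. Of 58 members tested, 54 were lower at E18.5 (33.5% of all 15863 genes tested) and 0 were higher (35.9%) by edgeR, with 0 higher at an unadjusted p below 0.05 and 0 in DESeq2. For 55 members the E18.5 libraries lay below the E14.5 libraries (43.0%). All 54 were over 2-fold by the point estimate (18.9% of all genes), and 50 passed the test for a change beyond 2-fold (12.2%). The median log2 fold change was -2.59, which is 6.02-fold lower, against 0.03 for all genes. Hist1h3g fell furthest, from 46.4, 48.3, and 39.3 CPM at E14.5 to 1.64, 3.87, and 3.79 at E18.5 (-3.67, SE 0.33, adjusted p = 0.000114). Hist2h4, an H4 gene on chromosome 3, fell from 151, 174, and 128 CPM to 7.20, 14.5, and 16.9 (-3.37, SE 0.33). The lowest E14.5 library was several times the highest E18.5 library for both. Hist1h3c (-3.37), Hist1h2ad (-3.35), and Hist1h2bk (-3.14) were the next largest. Without replicate 1 of E18.5, the library with the most lung transcripts, 53 members were lower, as were 5774 of all 16074 genes tested. The members' median was then -2.38, against 0.02 for all genes. The remaining E18.5 libraries still held a lung marker sum of 8889 and 9142 CPM, and its part in the result was not tested.

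**Figure D3:**
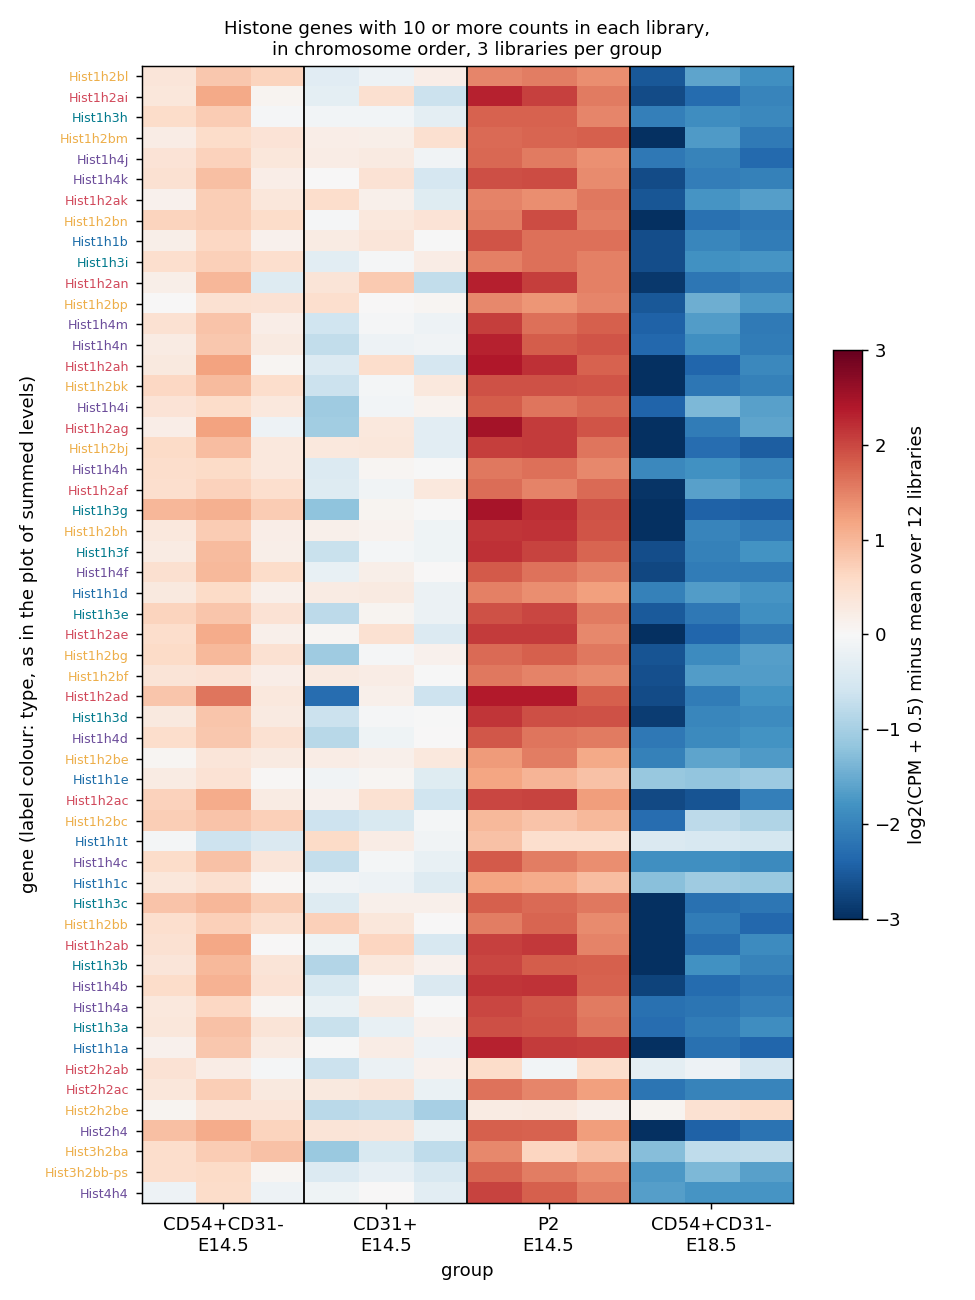
Level of the 55 histone genes with 10 or more counts in each library, as log2(CPM + 0.5) minus the gene's mean over the 12 libraries, in chromosome order. Columns are libraries in replicate order within each group, colours are limited at 3 log2 units, and label colours give the type. P2 columns are red and E18.5 columns blue in nearly every row. Hist2h2be, Hist2h2ab, and Hist1h1t are the palest rows, and Hist2h2be is not blue at E18.5.

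The linker histone genes did not fall alike. At E18.5 Hist1h1a had 23.7, 43.8, and 39.2 CPM against 226, 363, and 247 at E14.5 (log2 fold change -2.79, SE 0.28), and Hist1h1b fell by 2.36 on the log2 scale (SE 0.22). Hist1h1e had 303, 296, and 315 CPM at E18.5 against 789, 908, and 680 (-1.19, SE 0.15), and Hist1h1c fell by 1.26 (SE 0.15). Hist1h1d lay between at -1.99 (SE 0.15). Within the H1 reads, Hist1h1e therefore held 51.0%, 44.0%, and 47.0% at E18.5, 37.1%, 34.7%, and 35.7% at E14.5 in the same gate, and 29.3%, 29.5%, and 28.9% in P2 cells. Hist1h1a moved the other way, with 3.99%, 6.51%, and 5.85% at E18.5, 10.6%, 13.9%, and 13% at E14.5, and 19.9%, 19.1%, and 20.2% in P2 cells. The libraries of these 3 groups did not overlap for either gene, and the shares use no scaling between libraries. The H1 genes together drew 63.6%, 56.2%, and 54.8% of all histone reads at E18.5 against 42.1%, 40.0%, and 41.9% at E14.5. H3 genes drew 2.24%, 3.02%, and 3.24% against 5.02%, 4.81%, and 5.06%. In P2 cells, where levels were highest, the H1 share was 39.9%, 38.5%, and 41.5%, which overlaps that of the E14.5 CD54+CD31- cells.

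**Figure D4:**
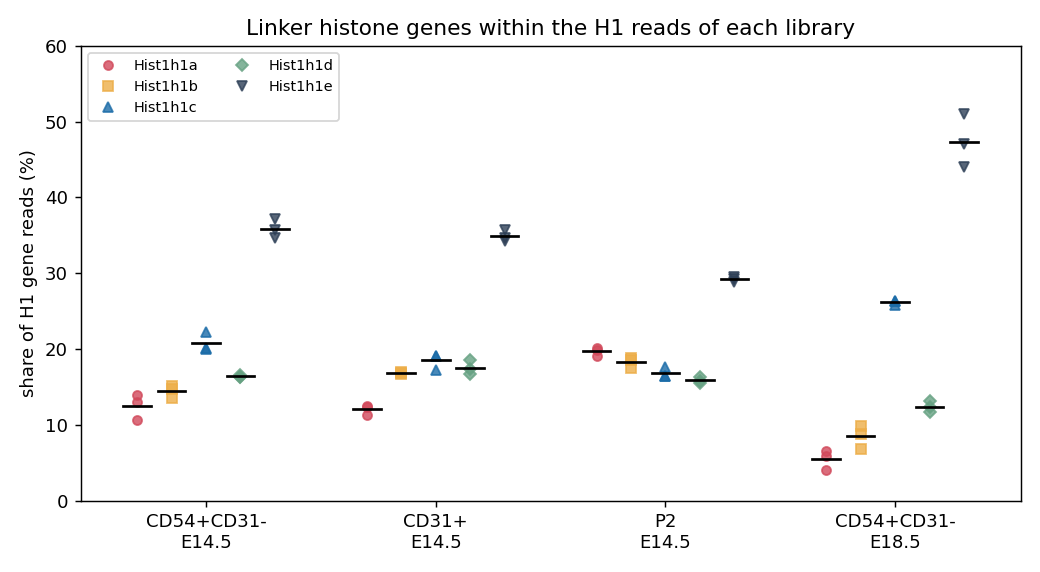
Share of each of 5 linker histone genes in the summed reads of the H1 genes (%), by library and group. Points are libraries and bars are means of 3. Hist1h1e rises from 29.2% in P2 cells to 47.3% at E18.5 as group means, and Hist1h1a runs from 19.7% down to 5.45%.

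A small set of members stood outside the common pattern in some comparisons. Hist2h2be, an H2B gene whose annotated transcript runs 2192 bases past its stop codon, had 2.85, 3.84, and 4.13 CPM at E18.5 and 2.86, 3.59, and 3.58 at E14.5 in CD54+CD31- cells. The groups overlapped, and the log2 fold change was 0.30 (SE 0.20, adjusted p = 0.232). In P2 cells it had 3.26, 3.35, and 3.00 CPM, a log2 fold change of -0.08 (SE 0.20) against E14.5 CD54+CD31- cells, whereas CD31+ cells had less of it, at 1.31, 1.39, and 1.09 CPM. Hist1h2bc, whose transcript runs 742 bases past the stop codon, had 127, 118, and 128 CPM in P2 cells against 109, 118, and 107 in E14.5 CD54+CD31- cells (0.14, SE 0.13). Elsewhere Hist1h2bc followed the pattern, with 41.5, 46.7, and 61.9 CPM in CD31+ cells and 12.9, 37.4, and 34.5 at E18.5. Long 3' ends were not particular to these genes. Hist4h4 (2515 bases past the stop codon), Hist2h4 (1311), and Hist1h1d (4931) followed the common pattern. Hist1h1t, known as the testis linker histone, had 1.07, 1.02, and 0.97 CPM at E18.5 and no difference from E14.5 was detectable at this depth (log2 fold change -0.0025, SE 0.30). Of the Hist2 block on chromosome 3, 2 of the 6 tested members (Hist2h2ac and Hist2h4) were higher in P2 than in CD54+CD31- cells, a share like the 33.8% of all genes. Of the Hist1 members 48 of 50 tested were higher, and the difference between the clusters was not tested. The other 4, Hist2h2ab, Hist2h2be, Hist2h3c1, and Hist2h3c2, had at most 4.13 CPM in any library. Members with over 200 bases after the stem-loop had a median change at E18.5 of -2.30, against -2.65 for those with at most 200 bases, a difference that was not tested. Hist2h2be and Hist1h2bc, whose models hold no stem-loop match, are in neither class.

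Not every member was measurable. Of the 70, 55 had 10 or more counts in every library, 10 had at most 20 counts in each library, and 7 had 0 counts throughout. The 7 were Hist1h2ba, Hist1h2br, Hist2h2aa1, Hist2h2aa2, Hist2h2bb, Hist2h3b, and Hist3h2a. For 4 (Hist2h2aa1, Hist2h2aa2, Hist2h2bb, and Hist2h3b) all 50-base words (100%) also occurred in another annotated gene, so a 0 there does not show a silent gene. Hist1h2ba and Hist1h2aa, an H2B and an H2A gene known from testis, were at 0 counts and at 0 to 4 counts. Hist1h2ap and Hist1h2bq also had at most 4 counts. Hist1h2ao, the last of the 11 members left out of every test, had 199 counts in P2 replicate 2 and 104 in CD31+ replicate 3 against 0 to 6 in the other 10 libraries, and 93.5% of its words are shared with other genes. When the 36 members with over 50% of shared words were left out, 28 of 31 tested members were still higher in P2 than in CD54+CD31- cells, 30 of 31 were higher than in CD31+ cells, and 29 of 31 were lower at E18.5. The 31 include Hist1h2bm and Hist1h2bh, which have no GENCODE model, so their shared words were not measured. Of the 29 tested members known to share at most 50% of words, 26, 28, and 27 passed in these comparisons.

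The members also varied within groups. At E14.5 the H2A genes had the widest spread of the types. Their summed level relative to the group mean ran from 0.721 to 1.28 in CD31+ cells and from 0.759 to 1.36 in E14.5 CD54+CD31- cells, whereas H2B sums ran from 0.963 to 1.02 and from 0.921 to 1.13. At E18.5 the H2B sums spread most, from 0.559 in replicate 1 to 1.26. Over the 12 libraries the deviations of H3 genes from their group means had a median pairwise correlation of 0.83 (36 pairs), those of H2A genes 0.66 (66 pairs), and those of H2B genes 0.62 (105 pairs). These libraries share depth and scaling between genes, and members share sequence, so the correlations are descriptions only.

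The genes that make and turn over histone mRNA were mostly higher in P2 cells and lower at E18.5. The list held 17 genes of histone gene transcription, 3' end processing, and transcript turnover. Of the 17, 14 were higher and 1 lower in P2 than in CD54+CD31- cells (33.8% and 36.1% of all genes). Their median log2 fold change was 0.91. Slbp, which encodes the stem-loop binding protein, averaged 146 ± 1.54 CPM (SD, n = 3) in P2 cells, 65.7 ± 9.44 in E14.5 CD54+CD31- cells, 70.65 ± 3.57 in CD31+ cells, and 20.8 ± 2.08 at E18.5. Slbp was higher in P2 than in CD54+CD31- cells by 1.13 on the log2 scale (SE 0.10, adjusted p = 3.59e-06), and it fell by 1.48 at E18.5 (SE 0.12). Npat, the coactivator of histone gene transcription, was higher in P2 cells (0.94, SE 0.11) but at E18.5 its change of -0.06 did not pass the test (adjusted p = 0.543). Casp8ap2, a component of histone locus bodies, was higher in P2 cells (1.15), and its change of -0.16 at E18.5 (adjusted p = 0.17) passed only without E18.5 replicate 1 (-0.233, adjusted p = 0.0251, edgeR). At E18.5, 13 of the 17 were lower and 1 was higher (33.5% and 35.9% of all genes), with a median of -0.72. Between CD31+ and CD54+CD31- cells 3 were higher and 5 lower, no more than the 31.7% and 34.0% of all genes. The median was 0.10 beside -0.68 for the histone genes. Against CD31+ cells 14 were higher and 1 lower in P2 cells (34.3% and 39.4% of all genes). The lower gene was Hinfp (-0.45, adjusted p = 0.00061, edgeR), a regulator of H4 transcription.

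A further list held genes that carry new histones to DNA or acetylate them. Of the 20 chaperone and acetylation genes tested, 17 were higher and 1 lower in P2 than in CD54+CD31- cells (33.8% and 36.1% of all genes). Against CD31+ cells 18 were higher and 2 lower in P2 cells (34.3% and 39.4%). At E18.5, 15 were lower and 3 higher (33.5% and 35.9%). The medians were 0.99, 0.99, and -1.2. Between CD31+ and CD54+CD31- cells 6 were higher and 6 lower, near the 31.7% and 34.0% of all genes. Nasp, an H3-H4 chaperone, had 602 ± 23.8 CPM in P2 cells and 56.1 ± 6.73 at E18.5. Chaf1b, a subunit of the CAF-1 assembly factor, had 56.7 ± 3.26 and 4.72 ± 0.10 CPM.

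The histone genes outside the clusters, most of which give polyadenylated mRNA outside S phase as well, moved in both directions. H2afx of this list also gives an S phase mRNA with a stem-loop. Of 11 tested, 6 were higher and 5 lower in P2 than in CD54+CD31- cells (33.8% and 36.1% of all genes), and 3 were higher and 4 lower at E18.5, near the 35.9% and 33.5% of all genes. H1f0, the linker histone of non-dividing cells, was lowest in P2 cells, at 44.2 ± 2.505 CPM against 266 ± 15.03 in E14.5 CD54+CD31- cells (log2 fold change -2.61, SE 0.11, adjusted p = 1.23e-08), while the S phase linker genes were highest there. H3f3b, which encodes H3.3, had 278, 199, and 206 CPM at E18.5 against 167, 198, and 181 at E14.5 (log2 fold change 0.51, SE 0.16, adjusted p = 0.0267), and without E18.5 replicate 1, the highest library, the change was 0.325 (adjusted p = 0.00883, edgeR). H2afx, H2afz, Cenpa, and H1fx fell with the cluster genes at E18.5, with log2 fold changes of -2.39, -2.5, -2.56, and -1.2. The summed level of the 70 cluster genes was 10.75, 10.03, and 10.3 times that of these 12 histones in P2 cells, 5.35, 5.90, and 4.78 times in E14.5 CD54+CD31- cells, 4.99, 5.16, and 4.75 times in CD31+ cells, and 1.18, 1.80, and 1.77 times at E18.5.

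The histone level was also set against genes of S phase. The list held 33 genes of DNA replication and its control, such as Pcna and the Mcm genes. Of 30 tested, 27 were higher in P2 than in CD54+CD31- cells (33.8% of all genes). At E18.5, 29 were lower and 1 (E2f2) was higher (33.5% and 35.9%). Their median log2 fold changes were 1.17 and -2.29, beside 1.17 and -2.59 for the histone genes. In P2 against CD31+ cells 29 of 30 were higher (34.3% of all genes) with a median of 1.38, beside 1.79 for the histone genes. In CD31+ against CD54+CD31- cells 4 were higher and 14 lower (31.7% and 34.0% of all genes) with a median of -0.21, beside -0.68. The differences between these medians were not tested. The ratio of the summed histone level to the summed level of these genes was 1.64, 1.62, and 1.35 in P2 cells, 1.68, 1.75, and 1.33 in E14.5 CD54+CD31- cells, 1.35, 1.455, and 1.24 in CD31+ cells, and 1.76, 1.457, and 1.56 at E18.5. The 12 libraries lay between 1.24 and 1.76, while the group means of the histone level spanned 10.5-fold. Every pair of groups overlapped except CD31+ cells (at most 1.455) and CD54+CD31- cells at E18.5 (at least 1.457).

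**Figure D5:**
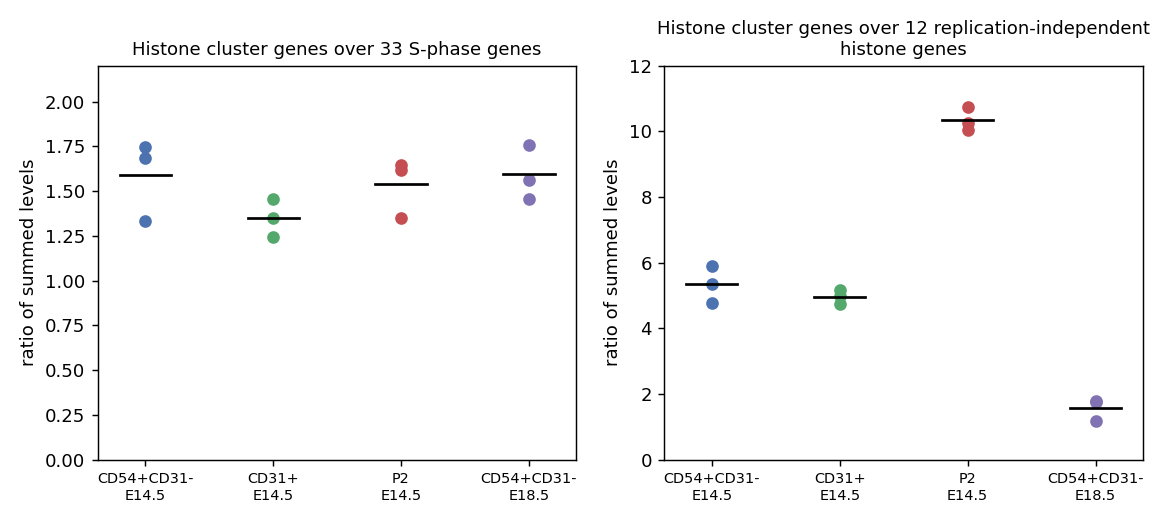
Ratio of the summed level of the 70 histone cluster genes to that of 33 S phase genes (left) and of 12 replication-independent histone genes (right), by library. Points are libraries and bars are means of 3. On the left the 12 libraries lie between 1.24 and 1.76, with the CD31+ libraries just below those of E18.5 and the other pairs of groups overlapping, and on the right P2 libraries lie at 10.03 to 10.75 and E18.5 libraries at 1.18 to 1.80.

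The log2 level over the 12 libraries was set against the summed histone level for 15402 other genes tested. The highest values of Pearson's r were those of H2afx (0.9965), Kars (0.9963), Fam58b (0.9962), Mrpl20 (0.9961), and Nmral1 (0.9959). These values are too close to be put in an order over 12 libraries in 4 groups. Slbp had 0.977, Pcna 0.983, Mcm6 0.989, Rrm2 0.974, Ccne2 0.9605, and E2f8 0.95. H2afx, which encodes the H2A.X variant, had 437 ± 74.1 CPM in P2 cells, 198 ± 40.3 in E14.5 CD54+CD31- cells, 144 ± 25.7 in CD31+ cells, and 33.3 ± 9.30 at E18.5.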

How the data were processed

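RNA of sorted cells was depleted of ribosomal RNA and made into stranded total RNA libraries with a low-input kit. The authors trimmed single-end reads (cutadapt 1.11), aligned them to GRCm38 (STAR 2.5.0a), and obtained the deposited counts per gene (featureCounts 1.4.6-p3). The strand setting and the treatment of reads with several alignments are not given in the sources used here, and 23 members have an antisense exon overlap. The deposited files hold raw counts, and beside them a score that the authors made by multiplying the count by 1 factor per library. The score was used only to read that factor.

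Counts were tested in R 4.3.3 with edgeR 4.0.16 (TMM, filterByExpr, quasi-likelihood test, Benjamini-Hochberg adjustment over all genes, adjusted p below 0.05). The 9 E14.5 libraries shared 1 fit and the 6 CD54+CD31- libraries another. Comparisons that share the E14.5 CD54+CD31- libraries are not independent. Levels are TMM-scaled CPM. The SE of a log2 fold change is its size over the root of the F statistic. Changes beyond 2-fold were tested with glmTreat. The test was tried on simulated counts. Replicates of a group differed by at least 38.6 in chi-square per degree of freedom, so none is a duplicate. Members, gene lists, and the rule for named genes (the 3 highest members per type, the 5 largest called changes per direction, the H1, Hist2, Hist3, and Hist4 members, and genes of the lists) were chosen with earlier results of these data known. Alternatives were DESeq2 1.42.0 and its size factors, library totals, other filters and samples in the fit, the replicate block, dominant genes left out, each library left out, and, chosen after seeing the data, the authors' factors and the gene lists without E18.5 replicate 1.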

Additional observations from a re-analysis of the deposited data

How the results depend on the processing

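The 52 higher members of P2 against CD54+CD31- cells became 11 in the test for a change beyond 2-fold, and 28 when members with over 50% of shared words were left out, which leaves 31 tested. No member was lower, but 1 (Hist2h3c1) was lower in DESeq2, 1 with only the 6 libraries compared, and 1 with the authors' factors. Against CD31+ cells 56 became 30 with members of shared words left out. For CD31+ against CD54+CD31- cells the 1 higher member became 5 with library totals and 0 with no low count filter, with only the 6 libraries compared, and beyond 2-fold, and the 32 lower became 7 with library totals, 3 beyond 2-fold, and 19 with shared words left out. Library totals also turned Hist1h1b to 0.372, Hist1h1e to 0.124, and Hist1h2bn to 0.072. At E18.5 library totals gave 1 higher member (Hist2h2be), and the 54 lower became 29 with shared words left out. For the changes with scaling, filter, and tool the cause was not tested.

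Library totals moved the median of all genes by 0.37, -0.125, 0.496, and 0.415 for P2 against CD54+CD31-, P2 against CD31+, CD31+ against CD54+CD31-, and E18.5 against E14.5, and the share of calls that were higher from 48.3% to 59.9%, 46.6% to 42.3%, 48.3% to 71.4%, and 51.7% to 68.4%. The authors' factors moved it by -0.264 and -0.369 in the P2 comparisons, with higher shares of 38.2% and 33.9%. Leaving out each library gave 51 to 52, 54 to 56, 27 to 43 (lower), and 52 to 54 (lower) in these comparisons, and 0 to 1 higher in CD31+ against CD54+CD31- cells. With CD31+ replicate 2 left out there were 43. Same-numbered libraries had deviations correlated between -0.00219 and 0.151. Each P2 library correlated best with the CD31+ library of its own number, and each CD31+ library with the CD54+CD31- library of its own number. In the other comparisons this did not hold for every library. The main test did not pair the numbers, and these values do not settle whether they are pairs. With the replicate block 53, 56, 42 (lower), and 53 (lower) members passed. Of the values of single genes, 2001 kept direction and side of the threshold, 89 lost and 23 gained the call. Members with few counts, such as Hist1h2aj, are limited by depth.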
